A study of Mus musculus with 12 samples.

Results

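The response of mandibular condylar fibrocartilage to 17β-estradiol (E2) was measured in wild-type (WT) mice by comparing 3 libraries from E2-treated animals with 2 libraries from placebo-treated animals, 5 of the 12 libraries of the series. The members were chosen by genotype and treatment in the labels, and every gene in the count table entered the comparison. All animals were female C57BL/6 mice that were ovariectomized at 16 weeks of age and sampled at 17 weeks. During the week between, WT mice carried either a placebo pellet (2 libraries) or a pellet holding 0.01 mg of E2 with a release time of 60 days (3 libraries). The remaining 7 libraries came from mice lacking estrogen receptor alpha (ERalphaKO), 4 under placebo and 3 under the same E2 pellet, all ovariectomized as well. They supplied part of the estimate of spread and are shown beside the WT values at the end. The part of the receptor gene removed in these mice, and whether a library held tissue of 1 animal or of several, was not stated in the labels or notes used. P-values therefore cover the spread between libraries, which may be partly technical.

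E2 acts mainly through 2 nuclear receptors, estrogen receptor alpha and beta, which bind DNA as dimers at estrogen response elements or through other DNA-bound factors and recruit cofactors to nearby genes. Ovariectomy removes the main source of the hormone, so the placebo animals show the tissue in estrogen deficiency. The mandibular condyle is covered by fibrocartilage: a superficial fibrous zone rich in type I collagen and lubricin, a layer of dividing progenitors, and deeper chondrocytes that make type II collagen, enlarge and mineralize next to bone. Estrogen is known to slow growth and turnover of skeletal tissue, including this joint.

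Levels are given as CPM, counts scaled to library size by edgeR. Where the 5 values of a gene are listed, the placebo values stand for replicates 1 and 2 and the E2 values for replicates 1, 2 and 3, in that order. Library totals were 17427027 to 28750636 counts, so that 3 counts corresponded to 0.11 to 0.176 CPM. The tissue's defining genes were present in all 5 libraries: Col2a1, the cartilage collagen, stood at 3695 and 7146 CPM under placebo and 5490.3, 4034 and 14781 CPM under E2, and Col1a1, the fibrous collagen, at 41689 and 42539 CPM under placebo and 28093, 31176 and 30802 CPM under E2. Transcripts typical of neighbouring tissues were also counted and differed between replicates. The summed level of 20 skeletal muscle markers was 26.98 and 3497 CPM under placebo and 1695, 969 and 335 CPM under E2, with 6 of them at 1 CPM or more in placebo replicate 1. That of 14 granulocyte markers was 900.4 and 74 CPM under placebo and 6.57, 3.77 and 1147 CPM under E2. The 13 white adipocyte markers summed to 139.6 and 248 CPM under placebo and 158, 126 and 115 CPM under E2, and the defining genes Plin1 and Cidec were above 1 CPM in placebo replicate 2 alone. The groups overlapped in all 3 sums, though 6 of the 12 tested adipocyte markers had an unadjusted p under 0.05 in the lower direction, and Adipoq, the fat hormone adiponectin, was at 7.57 and 15.8 CPM under placebo and 1.56, 0.0471 and 1.02 CPM under E2. The groups did not overlap for the sum of 11 eosinophil genes, a list chosen after its values were seen, with 418 and 36.0 CPM under placebo and 8.48, 6.40 and 7.02 CPM under E2. The part of the eosinophil genes in other results was not tested. Counts of calls with the muscle, adipocyte or granulocyte level as a covariate stand with the alternatives. In such bulk samples, fewer cells of a type and less RNA per cell cannot be told apart.

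**Figure D1:**
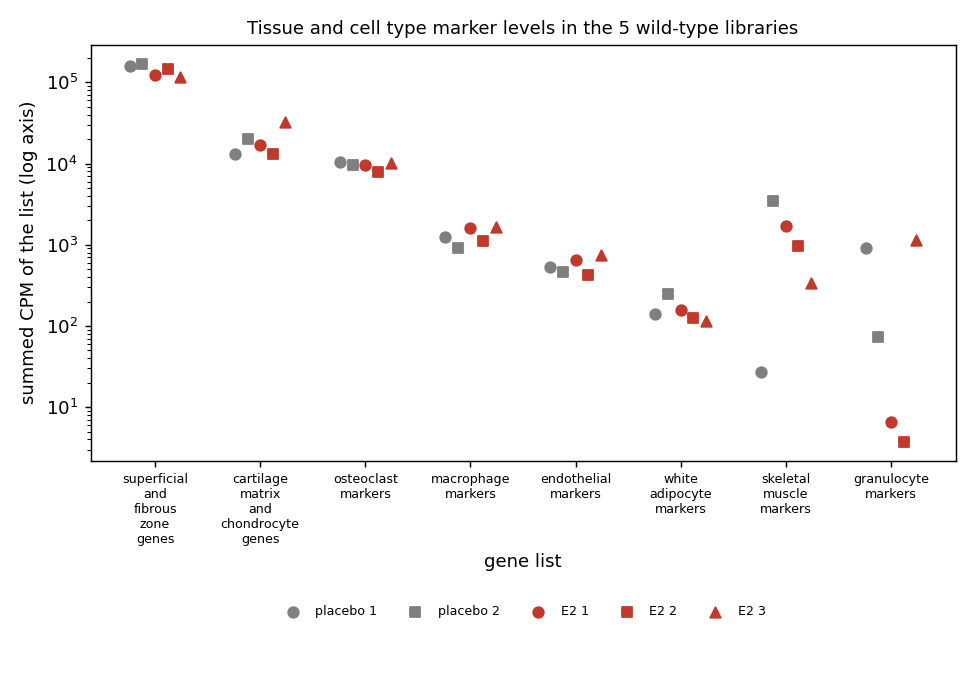
Summed CPM of 8 gene lists (log axis) in the 2 placebo libraries (grey) and the 3 E2 libraries (red) of WT fibrocartilage, each symbol being 1 library. Fibrous and cartilage lists were high in every library, while muscle markers ran from 27.0 CPM in placebo replicate 1 to 3497 CPM in placebo replicate 2 and granulocyte markers from 3.77 to 1147 CPM among the E2 libraries.

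With E2, 55 genes rose and 13 fell among 14832 tested, at an adjusted p under 0.05 by the quasi-likelihood test of edgeR with Benjamini-Hochberg adjustment. The called genes were 0.458% of those tested, 0.371% in the higher direction and 0.0876% in the lower. The genes that rose encode secreted and matrix proteins (Pi15, A2m, Thbs1, Col8a1), ion channels (Trpc6, Kcnk1, Kcnk2), interferon-inducible GTPases (Gbp4, Gbp6, Gbp8, Gbp9), scaffold and motor proteins (Whrn, Shank2, Myo5c) and receptors of myeloid cells (Siglec1, Mgl2). The lower genes include an activator of nonmuscle myosin (Limch1), a phosphate importer (Slc20a2) and the lactate exporter Slc16a3. The higher genes were changed more: 18 of 55 differed by over 4-fold, 20 by 2- to 4-fold and 17 by less than 2-fold, with a median log2 fold change of 1.52. Among the lower genes 1 of 13 (Limch1) differed by over 4-fold, 6 by 2- to 4-fold and 6 by less, with a median of -1.17. Over all genes tested the median was -0.004. Calls given without a tool are those of edgeR. Before adjustment, 8.14% of the genes had a p under 0.05, 4.42% in the higher direction and 3.73% in the lower.

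For all 68 called genes the 3 E2 libraries lay wholly on one side of the 2 placebo libraries. Such separation was found in 13.2% of all tested genes in the higher direction and 13.7% in the lower, so by itself it does not mark a called gene. In 27 of the 55 higher genes even the lowest E2 library was at least 2-fold above the highest placebo library, and in 5 of the 13 lower genes the corresponding gap was also at least 2-fold. Among all tested genes 67 showed such a gap in the higher direction and 52 in the lower. The 2 placebo libraries differed by over 2-fold in CPM for 5 of the 68 genes (Greb1, Gbp8, Tnnc1, Lgi2 and Hcn4), each below 1 CPM under placebo, against 7.44% of all tested genes. The 3 E2 libraries were not equally far from placebo. E2 replicate 2 held the lowest of the 3 E2 values in 51 of the 55 higher genes, and the median log2 distance from the placebo mean was 1.05 in that library against 1.72 and 1.71 in E2 replicates 1 and 3. For the 13 lower genes the corresponding medians were -0.90 in E2 replicate 2 and -1.13 and -1.14 in the other two.

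The number of calls depended on single libraries from every group, and the reason was not tested. Leaving out placebo replicate 1 left 5 of the 68 calls (Greb1, Pi15, Trpc6, Gbp8 and Thbs1), and leaving out placebo replicate 2 left Greb1 alone. Without E2 replicates 1 and 3 the number kept was 20 and 24, whereas without E2 replicate 2 it was 61 and the total of higher genes was 113. Leaving out a single ERalphaKO library, which enters through the shared spread, kept 39, 36, 58 and 30 calls for placebo replicates 1 to 4 and 35, 36 and 27 for E2 replicates 1 to 3. All 68 genes had the same sign of change in each of these 12 fits. That is no check of the calls, because groups without overlap keep their order whichever library is left out.

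**Figure D2:**
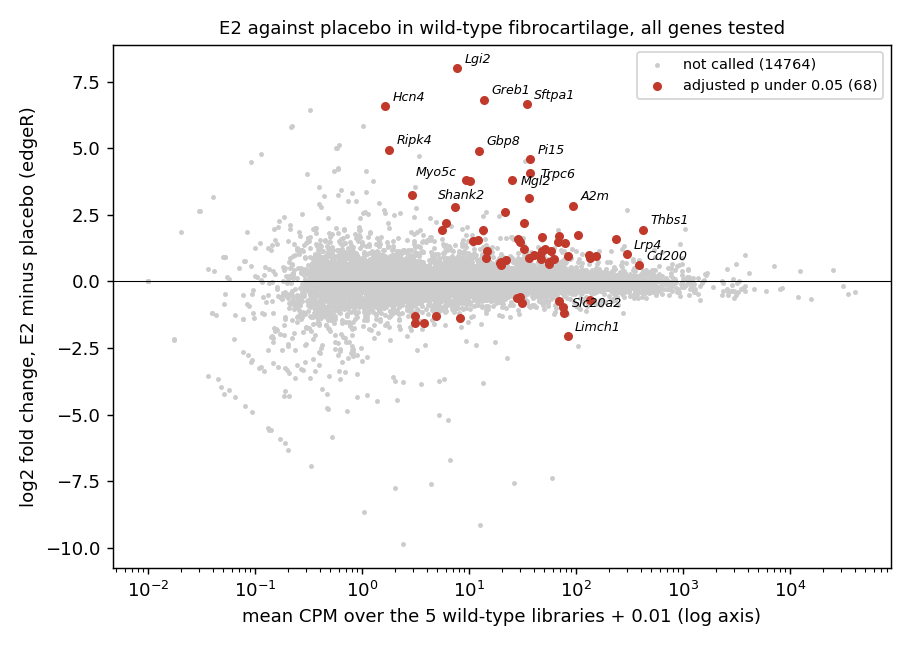
Log2 fold change with E2 (E2 minus placebo) against mean CPM over the 5 WT libraries (log axis) for 14832 tested genes, with the 68 called genes in red. Red points lie mostly above 10 CPM, and no gene with a mean below 1 CPM was called.

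Promoter sequences were examined for the estrogen response element, a palindrome of 13 bases written GGTCANNNTGACC, because the called genes moved together under an estrogen. RefSeq promoters (build GRCm38.p6) were found by symbol for 47 of the 66 called genes with full gene names, and the 250 bases before each start were searched on both strands. Genes without a promoter found include Pi15, Thbs1, A2m, Slc20a2, Gbp4, Gbp6, Gbp8 and Gbp9. A complete element was found in 0 of 47 genes, against 0.0666% of all genes with a promoter, and an element with at most 1 of its 10 fixed bases changed in 0 of 47, against 0.829%. At shares this low, 0 of 47 cannot be told apart from the share of all genes. With at most 2 changed bases the share was 10.6%, or 5 of 47, against 10.4% of all genes. A single arm of the palindrome, GGTCA or its complement TGACC, which also forms part of the full element, was in 40.4% of the 47 and 38.4% of all genes. These windows cover only the nearest bases, and a match is a description of letters. The 4 sequences printed here belong to the gene with the smallest p-value (Greb1, which has more than 1 start in RefSeq, the upstream one being shown) and to 3 of the 5 genes with at most 2 changed bases, Sftpa1, Myo5c and Limch1, which had large changes (for Limch1, the start with the closest match). They run 5′ to 3′ on the strand of the gene, and capitals mark the closest match to the element, with 3 changed bases in Greb1 and 2 in the others.
Greb1, chr12:16800887-16801136, reverse strand: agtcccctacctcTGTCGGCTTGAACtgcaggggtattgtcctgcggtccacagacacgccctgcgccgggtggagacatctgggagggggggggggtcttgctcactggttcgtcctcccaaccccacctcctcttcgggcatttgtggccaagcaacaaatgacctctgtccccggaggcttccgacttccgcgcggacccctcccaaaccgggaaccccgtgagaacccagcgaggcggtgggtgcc
Sftpa1, chr14:41131538-41131787, forward strand: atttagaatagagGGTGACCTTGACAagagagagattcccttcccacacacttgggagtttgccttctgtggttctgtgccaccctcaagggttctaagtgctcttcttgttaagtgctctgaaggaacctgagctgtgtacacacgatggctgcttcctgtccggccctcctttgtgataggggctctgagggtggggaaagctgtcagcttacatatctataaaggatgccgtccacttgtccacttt
Myo5c, chr9:75231764-75232013, forward strand: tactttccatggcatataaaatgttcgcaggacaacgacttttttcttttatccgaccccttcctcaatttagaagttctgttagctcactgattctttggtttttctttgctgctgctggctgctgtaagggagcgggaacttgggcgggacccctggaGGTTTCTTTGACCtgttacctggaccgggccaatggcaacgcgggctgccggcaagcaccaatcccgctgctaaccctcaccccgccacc
Limch1, chr5:66745639-66745888, forward strand: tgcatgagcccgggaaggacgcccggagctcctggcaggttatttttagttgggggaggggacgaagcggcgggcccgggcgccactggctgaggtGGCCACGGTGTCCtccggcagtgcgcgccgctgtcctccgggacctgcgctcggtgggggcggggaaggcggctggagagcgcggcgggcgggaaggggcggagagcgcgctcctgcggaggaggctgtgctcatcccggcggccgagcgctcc

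Among 19 textbook estrogen-responsive genes, Greb1 and Wnt4 rose and 0 fell, and the list's median log2 fold change was 0.04. Greb1, a chromatin-bound cofactor of estrogen receptor alpha, was almost silent under placebo at 0.117 and 0.256 CPM and reached 26.3, 17.4 and 25.04 CPM under E2, which is 6.81 ± 0.41 on the log2 scale (SE; edgeR adjusted p = 8.74e-05). Its placebo values rest on 2 and 7 counts, so the size of this fold is less certain than the SE shows. It was the only gene called under every alternative setting tried. Wnt4, a secreted ligand that acts in skeletal and reproductive tissue, rose 2.01-fold from 27.98 and 29.7 to 62.4, 42.8 and 68.4 CPM. The progesterone receptor gene Pgr, a classical target in the uterus, was near the detection limit under placebo at 0.117 and 0.147 CPM. It stood at 1.46, 0.847 and 1.08 CPM under E2, without passing the edgeR test (adjusted p = 0.176). The authors' deposited table called Pgr higher (adjusted p = 0.0121). Esr1, the gene of estrogen receptor alpha itself, was at 17.5 and 14.2 CPM under placebo and at 10.6, 8.52 and 12.04 CPM under E2. All 3 E2 values lay below both placebo values, and the difference of -0.61 ± 0.22 did not pass (adjusted p = 0.467).

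**Figure D3:**
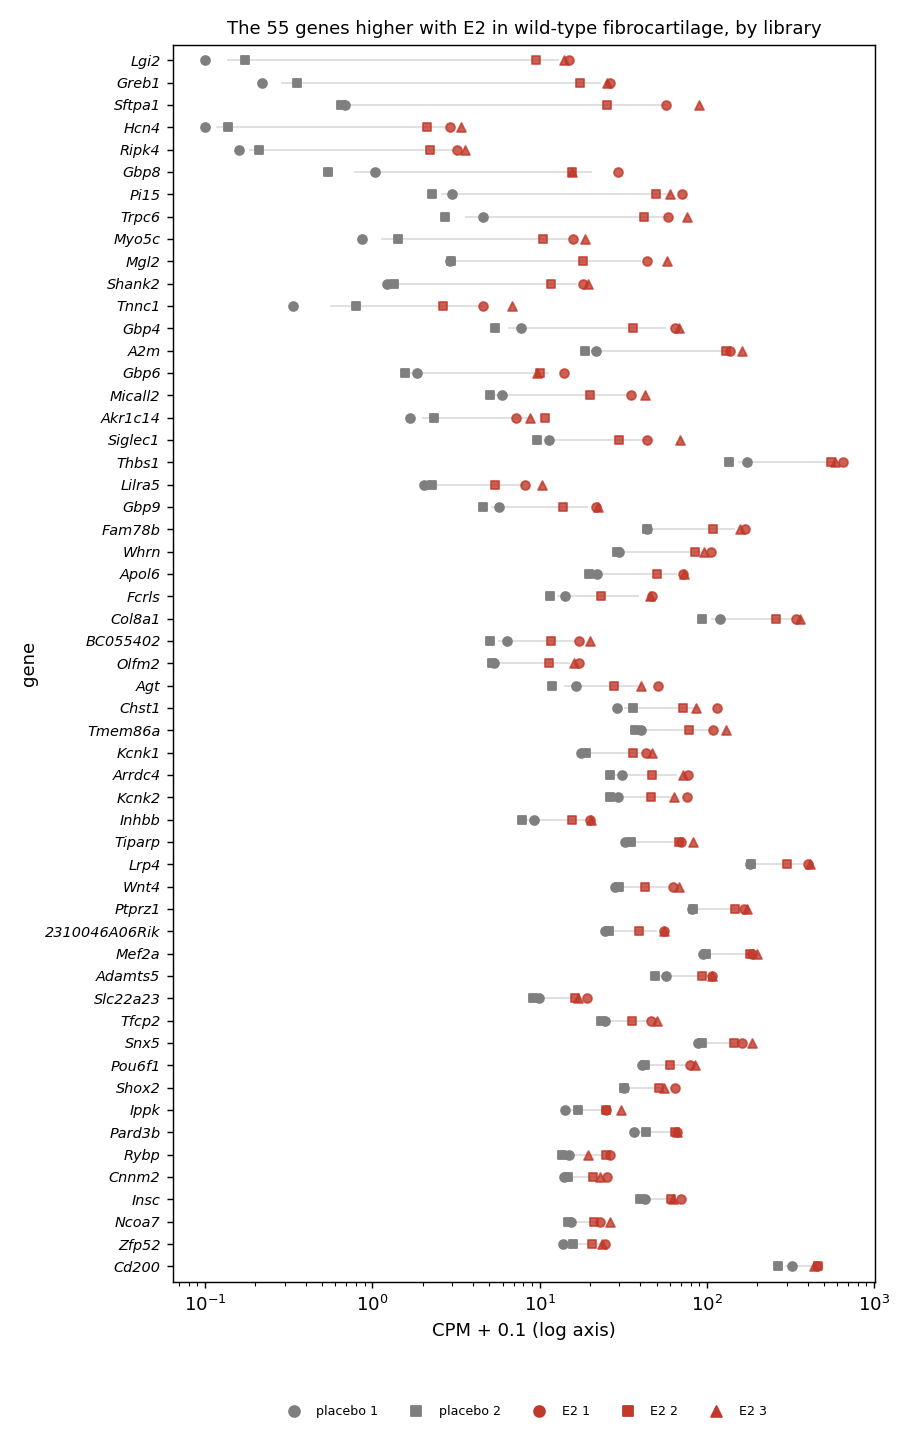
CPM plus 0.1 (log axis) of the 55 genes that rose with E2 in WT fibrocartilage, ordered by fold change, with placebo libraries in grey and E2 libraries in red. The groups overlap in none of the 55 genes, and the square for E2 replicate 2 is the lowest red symbol in 51 of them.

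The extracellular protease inhibitors moved in both directions, with 2 of 20 tested members higher and 1 lower and a list median of -0.11. A2m, alpha-2-macroglobulin, traps proteases of all classes, among them those that degrade cartilage. It stood at 21.7 and 18.5 CPM under placebo and 137, 130.3 and 162 CPM under E2, a rise of 7.14-fold (2.84 ± 0.32, adjusted p = 0.00394). Pi15, a secreted trypsin inhibitor, rose 24.02-fold from 2.87 and 2.16 CPM to 71.1, 49.5 and 59.9 CPM. Wfdc1, a secreted protein with a whey acidic protein domain, fell from 8.68 and 6.56 to 3.21, 4.001 and 2.10 CPM, and this was the called gene kept under the fewest alternatives, 4 of 22. Of 19 matrix metalloproteinases and aggrecanases, Adamts5, a main aggrecan-cleaving enzyme of cartilage, rose 1.94-fold from 56.96 and 48.9 to 108, 93.6 and 107 CPM, and the list median was -0.07. Adam12, a membrane-bound disintegrin and metalloproteinase of mesenchymal cells, fell 1.63-fold from 167 and 185 to 127, 104 and 93.6 CPM.

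Thbs1 was the most strongly changed of 16 thrombospondins and matricellular genes and the only one called. It encodes thrombospondin-1, a matrix glycoprotein that binds cell-surface CD47 and can activate latent TGF-beta. Its level was 175 and 135 CPM under placebo and 649, 551 and 587 CPM under E2, and its lowest E2 library was 3.16-fold above its highest placebo library. Col8a1, a short-chain network-forming collagen, was the only one of 39 collagen genes to rise, from 120.4 and 93.97 to 339, 259 and 360.2 CPM (2.98-fold, adjusted p = 0.0172), while the median collagen gene was at -0.17. Chst1, a sulfotransferase acting on keratan sulfate, rose from 28.9 and 35.9 to 115, 71.97 and 86.3 CPM. The other secreted products were Sftpa1, Lgi2, Olfm2, Agt, Inhbb, Ptx3 and Megf6. Sftpa1, a collectin best known from lung surfactant, went from 0.587 and 0.550 CPM to 56.8, 25.2 and 89.9 CPM, with E2 replicate 3 the highest. Lgi2, a secreted leucine-rich repeat protein, had 2 counts in both placebo libraries together and 14.9, 9.46 and 13.9 CPM under E2, a count ratio of 281 with a 95% counting interval of 77.6 to 2327. Olfm2, an olfactomedin, rose 2.87-fold and Agt, the precursor of angiotensin, 2.82-fold. Ptx3, a long pentraxin of innate immunity, fell 2.45-fold from 4.81 and 4.91 to 2.16, 1.65 and 2.15 CPM, and Megf6, an EGF-repeat protein, 1.94-fold from 102 and 111 to 48.5, 61.1 and 55.6 CPM.

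The lists of developmental ligands and receptors gave 1 call each by edgeR. This was 2.33% of the TGF-beta and BMP list and 2.86% of the Wnt list, against 0.458% of all tested genes. Each share rests on 1 gene. In the TGF-beta and BMP list, 1 of 43 members rose and 0 fell, with a median of 0.08. The riser was Inhbb, the beta-B subunit of activin and inhibin, at 9.15 and 7.69 CPM under placebo and 19.97, 15.5 and 20.3 CPM under E2. Among 35 Wnt ligands, receptors and antagonists, Wnt4 alone was called by edgeR, DESeq2 called 1 further gene lower, and the median was -0.05. Lrp4, a receptor of agrin that also binds sclerostin and belongs to none of the lists, rose 2.03-fold from 181 and 184 to 402, 299.9 and 412 CPM. Ptprz1, a receptor tyrosine phosphatase that binds pleiotrophin, rose 1.98-fold, with the E2 libraries at 167, 146 and 173 CPM and the placebo libraries at 81.5 and 82.4 CPM. Cd200, whose product restrains myeloid cells through its receptor, had the smallest called rise, 1.53-fold, from 322 and 268 to 455, 459 and 439 CPM. Its 3 E2 values were close to each other. In the opposite direction, Cd59a, which blocks the membrane attack complex of complement, fell 1.52-fold from 34.4 and 36.3 to 22.9, 21.3 and 25.5 CPM. Of 2 kinase genes, Ripk4, known from keratinocyte differentiation, rose from 0.0587 and 0.110 to 3.11, 2.12 and 3.48 CPM, and Hunk fell from 7.92 and 4.54 to 2.16, 2.165 and 1.89 CPM.

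Of the ion channel genes, Trpc6, a calcium-permeable channel opened by diacylglycerol, was the only one of 35 calcium channel subunits and TRP channels called. It stood at 4.46 and 2.60 CPM under placebo and 58.4, 41.99 and 75.6 CPM under E2, a rise of 16.8-fold (4.07 ± 0.39, adjusted p = 0.00319), and the list median was -0.11. Of 61 potassium channel genes 2 rose and 0 fell, with a median of 0.06. Both encode background leak channels of the same K2P family: Kcnk1 went from 17.6 and 18.9 to 43.4, 35.96 and 47.2 CPM and Kcnk2 from 29.4 and 26.4 to 75.7, 46.1 and 63.3 CPM, 2.31- and 2.21-fold. Hcn4, the pacemaker channel of the heart, had 1 count in the placebo libraries together and 2.81, 2.02 and 3.28 CPM under E2, a count ratio of 119 with a 95% counting interval of 21.1 to 4732. Cnnm2, which takes part in magnesium transport, rose 1.61-fold from 13.9 and 14.7 to 25.3, 20.8 and 22.8 CPM.

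Among 253 solute carriers 1 rose and 2 fell, and the median was -0.05. Slc20a2, which imports inorganic phosphate and is one of 16 hypertrophy and mineralization genes, fell 2.25-fold, from 118 and 114 CPM to 58.7, 47.3 and 48.9 CPM (-1.17 ± 0.14, adjusted p = 0.00666). It was the only called member of that list, whose median was 0.20. Slc16a3, the exporter of lactate from glycolytic cells, fell 1.65-fold from 83.7 and 94.8 to 56.8, 50.5 and 55.3 CPM. Slc22a23, of the organic ion transporter family, rose 1.85-fold from 9.80 and 8.98 to 18.97, 16.2 and 16.9 CPM. Slc16a3 was the only member of 19 glycolysis and lactate genes called by edgeR, while DESeq2 called 4 lower. In all, 18 of the 19 had negative fold changes, the list median was -0.33, and 6 had an unadjusted p under 0.05 in the lower direction against 3.73% of all genes. Ldha, lactate dehydrogenase A, was at 399 and 492 CPM under placebo and 340.4, 319 and 343 CPM under E2 (-0.41 ± 0.12), and the pyruvate kinase gene Pkm2 at 579 and 624 CPM under placebo and 465, 465 and 423 CPM under E2 (-0.42 ± 0.12), with an adjusted p of 0.267 and 0.274 by edgeR. DESeq2 called both (adjusted p = 0.0260 and 0.0281), and the authors' deposited table gave an adjusted p of 0.0619 for Ldha and 0.00590 for Pkm2. Bdh1, the mitochondrial enzyme that interconverts ketone bodies, fell 1.78-fold from 41.1 and 42.7 to 22.5, 26.3 and 21.9 CPM. Akr1c14, an aldo-keto reductase acting on steroids, rose 4.59-fold from 1.58 and 2.23 to 7.08, 10.7 and 8.71 CPM, and here E2 replicate 2 was the highest. Tmem86a, a lysoplasmalogenase, rose 2.74-fold and Ippk, a kinase of inositol phosphates, 1.72-fold.

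Limch1, an activator of nonmuscle myosin II, had the largest fall of all called genes, from 163 and 143 CPM to 49.2, 21.7 and 39.4 CPM (-2.06 ± 0.26, adjusted p = 0.00780). It was the only one of 23 tested nonmuscle actomyosin regulators called by edgeR, and the list median was -0.10. Myh10, a nonmuscle myosin heavy chain of that list, was at 59.5 and 62.5 CPM under placebo and 93.7, 78.9 and 81.5 CPM under E2 (0.47 ± 0.09, adjusted p = 0.0649 by edgeR). DESeq2 called it higher (adjusted p = 9.51e-04), as did the authors' deposited table (adjusted p = 0.0168). Whrn, a PDZ scaffold known from sensory stereocilia, rose 3.27-fold from 29.6 and 28.7 to 106, 84.7 and 95.5 CPM. Shank2, a scaffold of the postsynaptic density, rose from 1.11 and 1.25 to 17.96, 11.7 and 19.3 CPM, and Myo5c, a class V myosin that moves secretory vesicles, from 0.763 and 1.32 to 15.8, 10.3 and 18.7 CPM. Both genes had the E2 libraries far above the placebo libraries, without overlap. Micall2, which links Rab GTPases to actin at cell junctions, rose 6.01-fold. Smaller rises were measured for the sorting nexin gene Snx5 (1.81-fold), the polarity gene Pard3b (1.65-fold), the spindle orientation gene Insc (1.57-fold) and the alpha-arrestin gene Arrdc4 (2.29-fold). Kazn, a desmosome-associated protein, fell 1.497-fold from 38.1 and 35.9 to 25.8, 21.5 and 26.8 CPM.

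Tnnc1, troponin C of slow muscle and heart, was called higher at 0.235 and 0.696 CPM under placebo and 4.47, 2.54 and 6.76 CPM under E2. Of its placebo libraries replicate 2 was the higher, as for the summed muscle markers, while all 3 E2 libraries lay above both. The call was kept under 7 of 22 alternatives and was lost with the muscle markers as a covariate. None of the 19 tested muscle markers was called by edgeR or DESeq2 or had an unadjusted p under 0.05, and Acta1, skeletal actin, ran from 0.587 CPM in placebo replicate 1 to 668 CPM in placebo replicate 2.

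Beside Greb1, 8 called genes are known as regulators of transcription, a grouping made after the calls were seen, and they rose by 1.55- to 2.19-fold. Mef2a, a MADS-box factor of muscle and cartilage, rose 1.95-fold from 94.3 and 98.8 to 185, 180.3 and 199 CPM. Shox2, a homeobox factor of limb and jaw joint development, rose 1.79-fold from 31.9 and 31.9 to 64.3, 51.5 and 55.3 CPM. Tiparp, an ADP-ribosyltransferase that represses the aryl hydrocarbon receptor, rose 2.19-fold from 32.2 and 34.8 to 69.7, 68.5 and 82.2 CPM. The other called members of this kind were Ncoa7, a coactivator that binds the estrogen receptor (1.56-fold), Rybp, a polycomb component (1.65-fold), and the DNA-binding factors Tfcp2 (1.84-fold), Pou6f1 (1.80-fold) and Zfp52 (1.55-fold). No called gene of this kind fell. Fam78b rose 3.31-fold from 43.9 and 43.8 to 169, 108 and 158 CPM, whereas Tmem178, an inhibitor of calcium signalling in osteoclast precursors, fell 2.94-fold and D4Bwg0951e 2.62-fold.

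**Figure D4:**
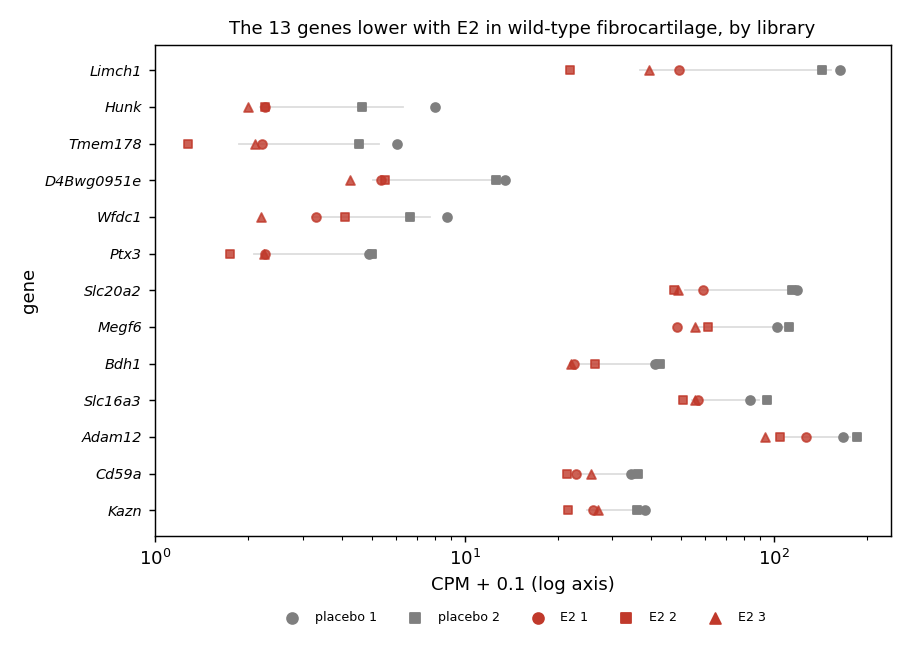
CPM plus 0.1 (log axis) of the 13 genes lower with E2 in WT fibrocartilage, ordered by fold change, with placebo libraries in grey and E2 libraries in red. Limch1 shows the widest gap, and in every gene all 3 E2 libraries lie below both placebo libraries.

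The guanylate-binding proteins are large GTPases that interferon-gamma induces and that attack intracellular pathogens. In this family 4 of 9 tested members rose and 0 fell, all 9 had positive fold changes, and the median was 1.92. Gbp4 was at 7.68 and 5.31 CPM under placebo and 64.2, 36.2 and 68.3 CPM under E2, Gbp8 at 0.939 and 0.440 CPM under placebo and 29.3, 15.6 and 15.6 CPM under E2, Gbp9 at 5.63 and 4.51 CPM under placebo and 21.5, 13.6 and 22.2 CPM under E2, and Gbp6 at 1.76 and 1.47 CPM under placebo and 13.8, 9.89 and 9.53 CPM under E2. For these 4 genes every E2 library was at least 2-fold above both placebo libraries. The uncalled members were split: Gbp10 was at 0 and 0.0366 CPM under placebo and 1.46, 0.941 and 0.512 CPM under E2, while Gbp2 (0.19 ± 0.24), Gbp3 (0.19 ± 0.56), Gbp5 (0.87 ± 0.52) and Gbp7 (0.39 ± 0.28) had overlapping groups. Of these only Gbp10 was called in the authors' deposited table (adjusted p = 0.00658). Values of single members are uncertain, because the counting of reads that match several of these similar paralogs is not known here. The 24 other interferon-stimulated genes gave 0 calls by edgeR, with 3 at an unadjusted p under 0.05 and 0 called by DESeq2. Of these, 22 were positive, against 7281 of all 14832 tested genes, with a median of 0.56, which was 0.12 without E2 replicate 3. Apol6, an apolipoprotein L outside both lists, rose 3.14-fold from 21.9 and 19.7 to 72.1, 50.6 and 73.1 CPM.

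Receptors of macrophages and other myeloid cells were among the called genes. Siglec1, the sialic acid receptor of resident macrophages, rose 4.54-fold from 11.3 and 9.60 to 43.5, 29.6 and 69.2 CPM, and Mgl2, a galactose-binding lectin of alternatively activated macrophages and dendritic cells, 14.01-fold from 2.82 and 2.86 to 43.9, 18.2 and 57.5 CPM. Fcrls, an Fc receptor-like scavenger receptor, rose from 14.02 and 11.4 to 46.97, 23.1 and 45.9 CPM, and Lilra5, an activating immunoglobulin-like receptor, from 1.94 and 2.16 to 8.03, 5.27 and 10.2 CPM. In all 4 genes E2 replicate 2 was the lowest E2 library. Of 11 tested alternatively activated macrophage genes Mgl2 was the only one called by edgeR, with 3 at an unadjusted p under 0.05 and 3 called higher by DESeq2. Fold changes were positive in 7 and negative in 4, and the median was 0.44 against both placebo libraries but -0.18 against placebo replicate 2. The 14 general macrophage markers had 0 calls by edgeR and 4 by DESeq2. Of the 14, 9 had an unadjusted p under 0.05 in the higher direction by edgeR, against 4.42% of all tested genes. Fold changes were positive in 13, against 7281 of all 14832 tested genes, with a median of 0.85. Their summed level was 1247 and 916 CPM under placebo and 1627, 1114 and 1676 CPM under E2, so that E2 replicate 2 lay within the placebo range while the other E2 libraries lay above it. C1qb, a subunit of complement C1q made by macrophages, was at 65.2 and 48.5 CPM under placebo and 128, 81.5 and 169 CPM under E2 (1.15 ± 0.28, adjusted p = 0.159 by edgeR). Csf1r, the receptor of macrophage colony-stimulating factor, was at 346 and 279 CPM under placebo and 407, 285 and 423 CPM under E2. The authors' deposited table called C1qb higher (adjusted p = 0.0128) and did not call Csf1r (0.916). The share of these marker levels in the receptor genes' rise was not tested. The 12 genes of MHC class II presentation gave 0 calls by edgeR, with 2 at an unadjusted p under 0.05 and 2 called by DESeq2, and a median of 1.04 that was 0.15 without E2 replicate 3.

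In the lists of the tissue's structural programmes no gene was called by edgeR. They held 10 to 24 tested genes, and with 0.458% of all tested genes called, 0 calls says little about them. In the superficial and fibrous zone list 0 of 24 genes were called by edgeR and 1 by DESeq2, and the median was -0.29. Of the 24 genes 8 had an unadjusted p under 0.05 by edgeR, 7 of them lower. Over all tested genes 3.73% had such a p in the lower direction. Col1a2 was at 45871 and 49038 CPM under placebo and 33186, 37950 and 35718 CPM under E2 (-0.41 ± 0.16), and Col1a1 gave -0.49 ± 0.17 (adjusted p = 0.510 and 0.444 by edgeR, 0.108 and 0.0632 by DESeq2). The authors' deposited table called both lower, with an adjusted p of 0.0114 for Col1a2 and 6.34e-05 for Col1a1. In both collagen genes every E2 library lay below both placebo libraries. Postn, periostin, was at 13253 and 16296 CPM under placebo and 7060.2, 14075 and 8047 CPM under E2, with E2 replicate 2 between the placebo libraries. The cartilage list had 0 of 19 called, with 1 at an unadjusted p under 0.05 and 1 called by DESeq2, and a median of 0.10, which was 0.21 against placebo replicate 1 and -0.30 against placebo replicate 2. Col2a1 gave 0.58 ± 0.59, with its highest level in E2 replicate 3 and overlapping groups. Osteoblast and osteocyte markers (0 of 12 called by edgeR, 2 at an unadjusted p under 0.05, 0 by DESeq2) had a median of 0.06, and osteoclast markers (0 of 10, 0 at an unadjusted p under 0.05, 0 by DESeq2) had -0.07. Acp5, the osteoclast enzyme TRAP, gave 0.01 ± 0.20 (SE).

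Broad cellular programmes had no called gene by edgeR or DESeq2. Over all 14832 tested genes 7281 fold changes were positive and 7544 negative. An unadjusted p under 0.05 by edgeR was found in 4.42% of them in the higher direction and 3.73% in the lower. In the cell cycle list, 25 of 25 genes had negative fold changes with a median of -0.33 and 3 at an unadjusted p under 0.05. The list's summed level was 606 and 561 CPM under placebo and 391, 389 and 579 CPM under E2. Thus E2 replicate 3 lay within the placebo range. Mki67, a marker of dividing cells, was at 82.2 and 76.3 CPM under placebo and 48.3, 52.6 and 89.3 CPM under E2, where E2 replicates 1 and 2 were below both placebo libraries and E2 replicate 3 above both. Of 77 ribosomal protein genes 67 were positive with a median of 0.17 and 5 at an unadjusted p under 0.05. Of 41 mitochondrial complex I subunits 36 were negative with a median of -0.15 and 2 at an unadjusted p under 0.05. All 17 cholesterol synthesis genes were negative with a median of -0.13 and 0 at an unadjusted p under 0.05. The 24 immediate-early and dissection stress genes had a median of -0.37 against both placebo libraries, 0.00 against placebo replicate 1 and -0.64 against placebo replicate 2, with 1 at an unadjusted p under 0.05.

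Of 16 further lists with 176 tested genes, 0 were called by edgeR, 27 had an unadjusted p under 0.05 and 6 were called by DESeq2. Over all tested genes, 8.14% had an unadjusted p under 0.05 by edgeR and 1.7% were called by DESeq2. Both shares were lower than those in the 176 genes. Fold changes were positive in 11 of 12 endothelial markers, whose median was 0.38, and complement components and regulators had a median of 0.25 and synovial lining genes 0.19. Schwann cell and nerve markers (-0.25), hypoxia-induced genes (-0.25) and smooth muscle and pericyte markers (-0.15) lay below 0. The insulin-like growth factor axis was at -0.10, circadian clock genes at 0.09, sex steroid receptors and steroid-converting enzymes at 0.03 and protein folding stress genes at 0.01. Among markers of other cell types the medians were wider apart: erythroid (-1.69), mast cell (-1.35), salivary gland (-0.46), lymphocyte (0.34) and brown adipocyte markers (-0.33), and those of epithelium lay at -0.09. They rest on 7 erythroid, 7 mast cell, 3 salivary gland, 11 lymphocyte, 5 brown adipocyte and 5 epithelial tested genes. Several of these medians depended on 1 placebo library. Against placebo replicates 1 and 2 the median was -2.39 and 0.11 for erythroid, -0.06 and -1.93 for mast cell, 0.17 and -0.16 for salivary gland, 0.14 and 0.57 for lymphocyte, and 2.23 and -0.63 for brown adipocyte markers. Among the 10 most counted genes, which is a matter of gene length as well as level, none was called by edgeR or DESeq2, though the authors' deposited table called Col1a1 and Col1a2: Fn1, fibronectin, was at 10422 and 10581 CPM under placebo and 16112, 14531 and 10132 CPM under E2, Sparc, a collagen-binding matrix protein, gave -0.19 ± 0.17, Col3a1 -0.66 ± 0.28, and the proteoglycans Bgn and Fmod -0.26 ± 0.22 and -0.27 ± 0.20.

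Other tools called more genes. DESeq2 called 157 genes higher and 90 lower (1.08% and 0.619% of those it tested, 1.7% together), including all 68. In lists described by their edgeR calls, it called 2 textbook estrogen-responsive genes higher and 1 lower, 3 protease inhibitors higher and 2 lower, 3 TGF-beta and BMP genes higher and 1 lower, 1 collagen gene higher and 1 lower, 2 solute carriers higher and 2 lower, 2 hypertrophy and mineralization genes higher and 1 lower, and 3 potassium channel genes higher. The authors' deposited table listed 170 genes as higher and 86 as lower at an adjusted p under 0.05 (1.75%), and the 68 genes called by edgeR, all with the same sign, made up 26.6% of them. Among the genes called by DESeq2 and not by edgeR, Lifr, the receptor of leukemia inhibitory factor, was at 399 and 352 CPM under placebo and 849.9, 576 and 1003 CPM under E2, and Jak1, a kinase that signals downstream of it, at 199 and 197 CPM under placebo and 314, 279 and 317 CPM under E2 (DESeq2 adjusted p = 1.12e-05 and 1.64e-05). Cytl1, a secreted protein of chondrocytes, was at 77.4 and 61.5 CPM under placebo and 542, 166 and 641 CPM under E2, and Clu, the chaperone clusterin, at 168 and 126 CPM under placebo and 439.9, 232 and 428 CPM under E2. Kera, the small leucine-rich proteoglycan keratocan of tendon and cornea, was at 29.1 and 36.7 CPM under placebo and 9.23, 7.67 and 3.53 CPM under E2. Cx3cr1, the fractalkine receptor of macrophages, was at 25.9 and 17.5 CPM under placebo and 66.6, 36.8 and 89.6 CPM under E2, and Nlrc5, the activator of MHC class I genes, at 11.5 and 10.2 CPM under placebo and 32.9, 19.96 and 50.5 CPM under E2. The potassium channel regulator Abcc9 (1.02 ± 0.19 by edgeR), the growth factor Clec11a (-0.61 ± 0.12) and the follistatin-like protein Fstl1 (-0.62 ± 0.12) completed the 10 with the smallest DESeq2 p-values at 10 CPM or more. Groups without overlap were a condition for choosing these 10 genes. Their adjusted p by edgeR was 0.0505 for Jak1 and 0.0886 for Clu, the lowest and the highest of the 10.

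Several joint genes stood in the authors' deposited table without a call by edgeR, and those named here were chosen after their values were seen. Prg4, lubricin of the articular surface, was at 165 and 130.1 CPM under placebo and 390.3, 291 and 347 CPM under E2, and the authors' deposited table gave it a log2 fold change of 1.18 ± 0.17 with an adjusted p of 2.95e-09. The edgeR estimate was 1.22 ± 0.57 with an adjusted p of 0.623, and DESeq2 gave 0.575. In ERalphaKO libraries, which share the spread in these fits, Prg4 ran from 66.0 to 341 CPM. Cilp, a matrix protein of the middle cartilage zone, was at 559 and 379 CPM under placebo and 1418, 846 and 1465 CPM under E2 (1.31 ± 0.25, adjusted p = 6.72e-05 in the authors' deposited table). Ibsp, bone sialoprotein, was at 2189 and 2516 CPM under placebo and 4376, 3416 and 6169 CPM under E2 (0.93 ± 0.23, adjusted p = 0.00615 in the authors' deposited table). Igf1 and Igf2, the insulin-like growth factors, were at 111 and 137 CPM under placebo and 67.6, 62.4 and 29.8 CPM under E2 and at 50.4 and 61.6 CPM under placebo and 31.4, 34.1 and 23.8 CPM under E2, with -1.10 ± 0.30 and -0.87 ± 0.20 in the authors' deposited table. All E2 libraries were above both placebo libraries for Prg4, Cilp and Ibsp and below both for Igf1 and Igf2. Such separation held for all 256 genes called in the authors' deposited table and for 26.9% of all tested genes. It therefore came with the choice of these genes.

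The same pellet was given to mice without the receptor, and the values of the 68 genes in those libraries are set beside the WT values. Reads of Esr1 were still counted there, at 3.65 to 5.68 CPM in the ERalphaKO placebo libraries and 4.55 to 5.78 CPM in the ERalphaKO E2 libraries. In ERalphaKO 0 of 14832 genes (0%) were called with E2 by edgeR, with 846 at an unadjusted p under 0.05. Of the 68 genes, 61 had an absolute log2 fold change below 0.5 in ERalphaKO, 6 had an unadjusted p under 0.05, and in none was the change as large as in WT. The genes were chosen by their WT change, so a smaller change in ERalphaKO came partly with the choice. The share of all tested genes below 0.5 in ERalphaKO was not counted. Across the 55 genes that rose in WT the median ERalphaKO log2 fold change was 0.08, and across the 13 that fell it was 0.03. Greb1 ranged from 0.120 to 0.201 CPM in the 4 ERalphaKO placebo libraries and from 0.204 to 0.482 CPM in the 3 ERalphaKO E2 libraries (0.97 ± 0.38). A2m ranged from 0.852 to 2.03 and from 1.12 to 2.71 CPM in the same groups, below every WT library. Thbs1 ranged from 130.1 to 209 and from 139 to 165 CPM (-0.07 ± 0.16). Only Hcn4 and Lgi2, both with few counts, had an absolute log2 fold change of at least 1 in ERalphaKO.

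Whether E2 acted differently in the 2 genotypes was tested directly as an interaction, and 8 genes (0.0539% of those tested) passed at an adjusted p under 0.05, all of them among the 68. Greb1 (5.85 ± 0.56, adjusted p = 0.00862), Trpc6 (4.21 ± 0.49), Gbp4 (3.66 ± 0.41), Gbp8 (4.89 ± 0.61), Pi15 (4.29 ± 0.56), Thbs1 (2.01 ± 0.25) and Whrn (1.67 ± 0.23) had the more positive effect in WT. Slc20a2 (-1.31 ± 0.18, adjusted p = 0.0429) had the more negative one. All 68 genes had an interaction of the same sign as their WT change and an unadjusted interaction p under 0.05, but the WT effect is part of that difference and its libraries were used to choose the genes. For the 60 others, including A2m (2.65 ± 0.44, adjusted p = 0.0782), Sftpa1 (6.57 ± 1.01, 0.0612) and Limch1 (-2.07 ± 0.33, 0.0720), the difference did not pass. The number of genes passing was 0 and 1 without WT placebo replicates 1 and 2, 31 without WT E2 replicate 2, 1 without WT E2 replicate 3, and 4, 18 and 3 without ERalphaKO placebo replicates 1, 3 and 4. Without any one of the 3 ERalphaKO E2 libraries it was 1.

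**Figure D5:**
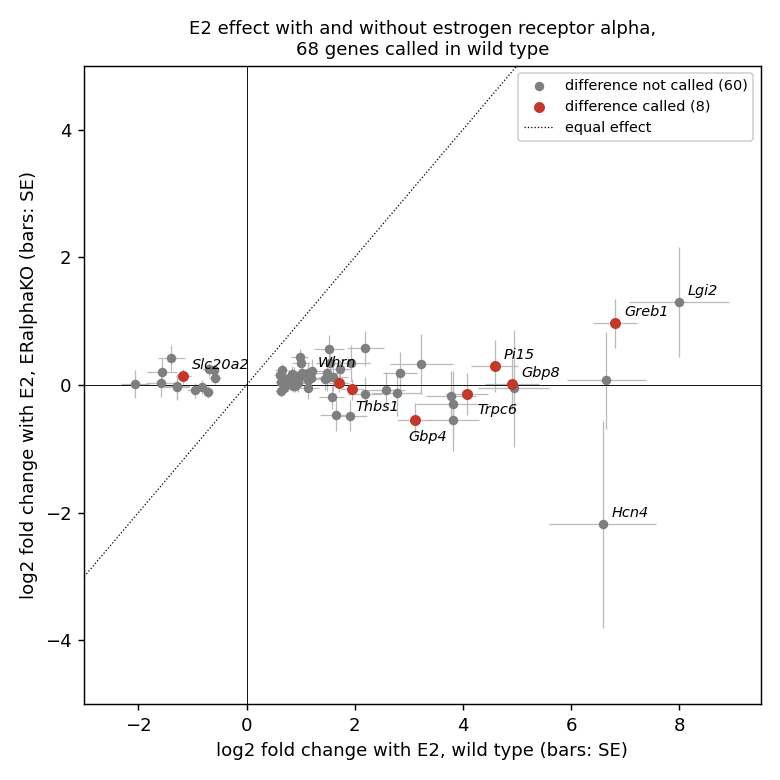
Log2 fold change with E2 in WT (x axis) against ERalphaKO (y axis) for the 68 genes called in WT, with SE bars. Red points mark the 8 genes whose difference between genotypes passed the test. Most points lie near 0 on the y axis, away from the dotted line of equal effects, and the genes were chosen by their x values.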

How the data were processed

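Polyadenylated RNA of the condylar fibrocartilage was sequenced on Illumina HiSeq machines with 100-base reads, per the labels' protocols. The submitters' processing notes name bcl2fastq 2.17, TopHat and the mouse build mm9. Counting tool, annotation and strand setting are not given in the sources used here. Genes overlapping on opposite strands may therefore share counts. The authors deposited raw read counts per gene symbol. Their deposited comparison table for WT holds a baseMean signal, log2 fold changes with standard errors, a test score and p-values, unadjusted and adjusted, laid out as DESeq2 writes them per the file headers.

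Counts were filtered with edgeR 4.0.16 (filterByExpr, minimum count 10), scaled by TMM (trimmed means of M values), and fitted by quasi-likelihood over all 12 libraries with 1 mean per group in R 4.3.3. This left 8 residual degrees of freedom, with a biological coefficient of variation of 25.9%. Of 23284 genes 14832 were tested and 4326 had no count. P-values were adjusted by Benjamini-Hochberg with a threshold of 0.05. SE was obtained from the F statistic, as the size of the log2 fold change over its root. Counting intervals cover counting error only. DESeq2 1.42.0, limma 3.58.1 (voom with quality weights), other scaling and filters, a replicate block, marker covariates and leaving out each library were alternatives. Replicate libraries differed beyond sampling noise, so none was counted as a duplicate. The scripts were tested on simulated data.

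The 46 gene lists, the members and the naming rule were chosen with earlier results of these data known. The lists held 1299 genes in the table, 1086 of them tested and 21 called. Named genes were Esr1, every called gene that reached 1 CPM on average without overlap of groups, from each list up to 3 called members or else the most counted one, the 10 genes with the lowest DESeq2 adjusted p not called by edgeR, with at least 10 CPM and no overlap, and the 10 most counted genes. Of the 68 called, 2 with predicted or clone names are counted but not named. Adipoq, Pgr, Ldha, Pkm2, Myh10, C1qb, the uncalled Gbp genes and the genes said to be so in the text were chosen after their values were seen.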

Additional observations from a re-analysis of the deposited data

Results flagged for a closer look

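The E2 effect differed between WT and ERalphaKO for 8 genes by the interaction test of edgeR (adjusted p under 0.05 over all 14832 genes, 3 against 2 and 3 against 4 libraries). The log2 difference of the E2 effects, WT minus ERalphaKO, was 5.85 for Greb1, 4.89 for Gbp8, 4.29 for Pi15, 4.21 for Trpc6, 3.66 for Gbp4, 2.01 for Thbs1, 1.67 for Whrn and -1.31 for Slc20a2. In all 8 genes the WT libraries of the 2 treatments did not overlap. This held for all 68 called genes, to which the 8 belong, and for 26.9% of all tested genes. Groups of 2 and 3 libraries are too small for a check of single outlying libraries.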

How the results depend on the processing

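All 68 genes had the same sign under all 22 alternatives, and no gene or count of calls reversed. For the 68 genes this came largely with their groups not overlapping, so it is no check of the calls. The medians of lists were less stable: in 18 of 46 lists the median had opposite signs against the 2 placebo libraries, as for skeletal muscle markers with 4.85 against placebo replicate 1 and -2.08 against placebo replicate 2. Under scaling by DESeq2's size factors in edgeR, 67 of the 68 calls were kept, without the low-count filter 65, and with genes of at least 1 CPM alone 68. The counts moved under the other settings, and beyond their construction (other libraries, terms or tools) the cause was not tested. DESeq2 called 157 genes higher, 90 lower and 92 both with E2 in WT and for the genotype difference, and voom 118, 51 and 30. A fit to the 5 WT libraries called 7 higher and 0 lower by edgeR, with 589 lower at an unadjusted p under 0.05. A muscle marker covariate left 36 higher genes and 0 for both by edgeR (without it 8 by edgeR and 92 by DESeq2). With the adipocyte level, 15 were higher and 3 lower, and with the granulocyte level 22 were lower and 29 passed for both.

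Leaving out 1 library gave 1 to 113 higher genes, 0 to 18 lower genes and 0 to 31 passing for both. Genes lower numbered 0 without either WT placebo library, with 338 and 363 at an unadjusted p under 0.05 by edgeR. The replicate block gave 15 higher, 3 lower and 3 passing for both. The replicate numbers were not taken as pairs: deviations from group means correlated over 0.1 in 9 of 15 same-numbered pairs (r from -0.33 to 0.50), and 6 of 11 libraries correlated best with their own number. All 6 pairs of replicate 2 correlated at 0.215 to 0.47, against -0.326 to 0.50 for replicate 1 and -0.121 to 0.126 for replicate 3. At these depths 3 counts are 0.11 to 0.176 CPM in the WT libraries, so a fold change of a gene near that level in a group rests on few counts.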

Other observations

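Eosinophil granule and effector genes were high in placebo replicate 1 and near 0 in the WT E2 libraries; this list of 11 genes, 10 of them tested, was put together after the values were seen. Prg2, the major basic protein of eosinophil granules, was at 276 and 19.8 CPM under placebo and at 1.41, 0.282 and 0.973 CPM under E2. The eosinophil-associated ribonuclease gene Ear1 was at 58.3 and 4.73 CPM under placebo and at 0.1, 0 and 0.0512 CPM under E2, and Epx, eosinophil peroxidase, at 30.2 and 2.35 CPM and at 0.151, 0 and 0.307 CPM. By edgeR none of the 3 passed (adjusted p = 0.391, 0.264 and 0.554), while DESeq2 called Prg2 and Ear1 (adjusted p = 0.00954 and 7.86e-04). DESeq2 also called Prg3, Ear2, Ear6 and Alox15 lower (adjusted p = 0.0276, 0.0372, 0.0203 and 0.00643), but not Epx, Il5ra, Siglec5 or Ccr3. In the authors' deposited table Prg2, Ear2, Ear6 and Alox15 were called lower. Ccr3, the eotaxin receptor of the same cells, was at 6.98 and 5.24 CPM under placebo and at 6.67, 6.03 and 5.43 CPM under E2. It made up most of the summed list level under E2, which was 8.48, 6.40 and 7.02 CPM. In ERalphaKO the summed level of the 11 genes was 66.8, 29.8, 760 and 115 CPM in placebo replicates 1 to 4 and 801, 5.99 and 102 CPM in E2 replicates 1 to 3. The neutrophil granule gene Ngp was at 62.1 CPM in WT placebo replicate 1 and at 281 CPM in WT E2 replicate 3, where the eosinophil genes stood near 0.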
